A study of Mus musculus with 6 samples.

Results

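The gene Cpxm2 and 6 related genes, Cpxm1, Aebp1, Cpe, Cpd, Cpm and Cpz, were described in bulk RNA-seq of the embryonic mouse palate. They encode members of the M14 metallocarboxypeptidase family, in the branch named after carboxypeptidases N and E, and were matched by symbol to the Ensembl identifiers of the deposited counts. All 7 were found among the 56691 genes counted, and all 7 passed the filter of at least 10 counts in at least 3 libraries. Cpxm2 was chosen by its difference in counts between the regions in these same libraries, so that difference is given as a description and not as a test. The relatives were listed with the results known, and their regional differences are treated in the same way.

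Carboxypeptidases of this branch remove basic amino acids, lysine or arginine, from the carboxyl end of peptides and proteins. Cpe and Cpd act inside the secretory pathway after convertases such as furin have cut a precursor, Cpm is tethered to the outer cell surface and Cpz is bound in the extracellular matrix. Cpxm1, Cpxm2 and the secreted product of Aebp1 carry a discoidin domain in front of a carboxypeptidase-like domain, and the CPX proteins lack residues that the active enzymes need.

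The study took the anterior 1/3 and the posterior 1/3 of the palatal shelves of C57BL/6J embryos at embryonic day 14.0, the time of shelf elevation, with 3 libraries from each region. No mutation or treatment was applied. The study describes the libraries as biologically independent, while the labels do not say how many embryos each one holds, so the p-values below measure the spread between these libraries. In bulk tissue, fewer cells of a type and less RNA per cell cannot be told apart.

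The libraries held 11378736 to 15172733 reads counted on genes, and a count of 0 allows up to 0.206 to 0.260 CPM (counts scaled to a common library size, with TMM normalization), for counting error only. The markers of the labelled regions were in place, with all 4 anterior markers called higher in the anterior and all 3 posterior markers higher in the posterior libraries. Posterior replicates 2 and 3 stood apart, with 6.12% and 5.94% of reads mapping to several places against 8.45% to 8.77% in the other libraries, and 0.973% and 1.14% mitochondrial counts against 2.70% to 2.97%. Results for the family are therefore also given with posterior replicate 1 alone. In that fit, and in the one with a term for the library groups, the posterior level rests on 1 library, which is assumed to vary like the others, and with posterior replicate 1 alone the SE comes from the spread of the anterior libraries. Over all genes, edgeR's quasi-likelihood test called 7.46% at an adjusted p-value below 0.05 (2.59% higher in the anterior palate and 4.87% in the posterior), and 1 of the 7 family members, Cpxm2, was among them. At an unadjusted p-value below 0.05 there were 4 of 7, beside 25.2% of all genes. Anterior and posterior ranges were separate for 3 members, beside 28% of all genes. Of these, 1 member was higher in the anterior palate, where 13.4% of all genes tested were, and 2 were higher in the posterior palate, where 14.7% were.

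Cpxm2 (ENSMUSG00000030862.14) encodes a secreted carboxypeptidase-like protein of unsettled function. In GENCODE M21 it lies on the minus strand of chromosome 7 of GRCm38 from 132032687 to 132154739, with 4622 bases of exon. It had 20.94, 21.59 and 21.28 CPM in anterior replicates 1, 2 and 3, from 276, 297 and 246 counts. In posterior replicates 1, 2 and 3 it had 1.57, 1.95 and 2.40 CPM, from 21, 27 and 35 counts. All anterior libraries were thus far above all posterior ones, and the posterior counts were low but well above the limit of 3. The means were 21.3 ± 0.326 CPM (SD, n = 3) and 1.97 ± 0.415 CPM (SD, n = 3), 10.8-fold higher in the anterior palate. The fitted log2 fold change, posterior over anterior, was -3.42 (SE 0.18). With posterior replicate 1 as the only posterior library it was -3.75 (SE 0.20), and without that library it was -3.28 (SE 0.15).

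**Figure D1:**
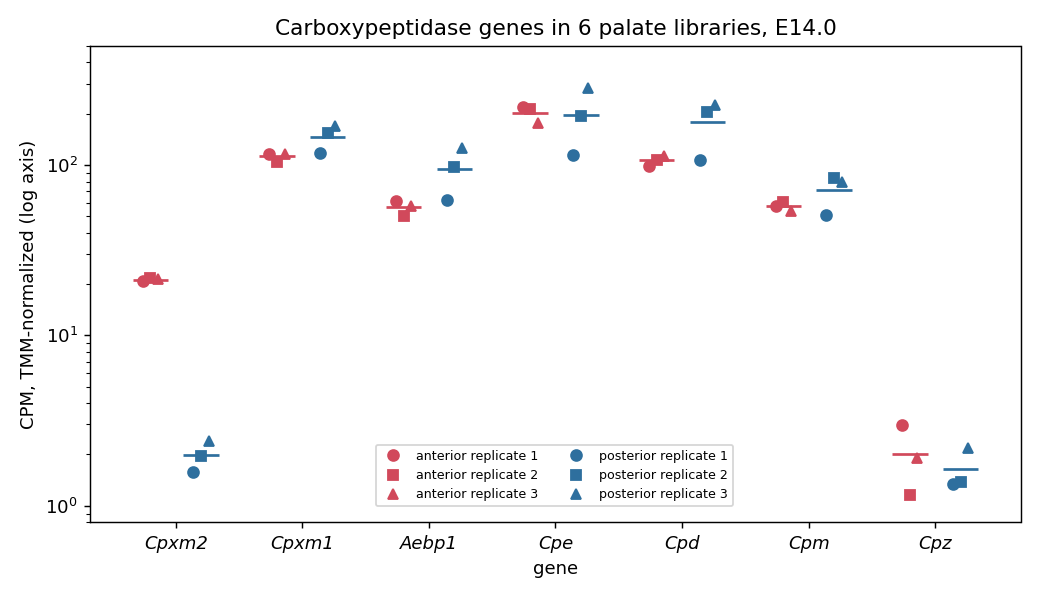
TMM-normalized CPM (log axis) of the 7 genes in each of the 6 libraries, anterior in red and posterior in blue, with a bar at the mean of each region and a marker shape for each replicate number. Cpxm2 is near 21.3 CPM in the anterior libraries and near 1.97 CPM in the posterior ones, while the means of the other 6 genes differ by at most 1.69-fold between the regions.

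The 5′ end of Cpxm2 overlaps Gm15677, an antisense gene on the opposite strand, over 351 bases of exon. Gm15677 had 2 counts in anterior replicate 2 and none in the other 5 libraries. Without regard to strand, Cpxm2 kept 93.8% of its strand-specific counts over the 6 libraries together, against 100% to 101% for the other members. The unstranded counts of Cpxm2 were 260, 280 and 234 in the anterior and 17, 25 and 30 in the posterior libraries. On the unstranded counts its log2 fold change was -3.55. Fgfr2, an FGF receptor gene, is annotated in M21 on the same strand across the whole of Cpxm2, with no shared exon, and had a log2 fold change of -0.07 (SE 0.23). Among the nearest tested genes on either side, looked up after the values were seen, Chst15, a sulfotransferase gene of chondroitin sulfate, had a log2 fold change of -0.75 (SE 0.18, adjusted p = 0.0509 from edgeR). Gm44891, an annotated gene within the span of Chst15, had 7.66, 6.76 and 7.53 CPM in the anterior and 5.02, 0.217 and 0.411 CPM in the posterior libraries. Its log2 fold change was -1.97 (SE 0.87, adjusted p = 0.209). Bub3, a mitotic checkpoint gene, had one of -0.22 (SE 0.13, adjusted p = 0.302).

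The sequences just upstream of Cpxm2 and of its closest relative in domain make-up, Cpxm1, are shown because the genes differ in their regional pattern. Each is the 250 bases before the RefSeq start (GRCm38.p6), 5′ to 3′ on the minus strand, chr7:132154742-132154991 for Cpxm2 and chr2:130397630-130397879 for Cpxm1. Capitals mark matches, on either strand, to the GC box GGGCGG or the CCAAT box CCAAT.
Cpxm2 promoter: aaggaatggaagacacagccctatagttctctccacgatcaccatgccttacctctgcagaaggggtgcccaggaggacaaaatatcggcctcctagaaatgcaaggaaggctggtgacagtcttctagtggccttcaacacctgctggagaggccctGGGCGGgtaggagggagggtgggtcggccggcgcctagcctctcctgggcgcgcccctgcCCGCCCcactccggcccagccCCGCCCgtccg
Cpxm1 promoter: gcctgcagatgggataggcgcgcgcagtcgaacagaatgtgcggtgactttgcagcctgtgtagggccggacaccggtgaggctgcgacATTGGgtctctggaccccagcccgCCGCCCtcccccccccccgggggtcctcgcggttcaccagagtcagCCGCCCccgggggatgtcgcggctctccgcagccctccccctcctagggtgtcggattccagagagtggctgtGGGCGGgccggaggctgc
Both windows held 3 GC boxes, a motif present in 32.7% of the 32841 promoters of this length. The homeodomain core TAATTA, present in 4.84% of promoters, the TATA box TATAAA (12.4%) and the E-box CAGCTG (13%) had no match in either. The CCAAT box, held by 33.9% of promoters, occurred once upstream of Cpxm1 and had no match upstream of Cpxm2. The Cpxm2 window had 13 CpG pairs and 64.0% GC, and that of Cpxm1 had 21 and 70.8%, against medians of 6 and 52.4% over all promoters. Of the other members, Cpz, Cpd, Cpm and Aebp1 had a promoter entry, with 8 to 30 CpG pairs and no TAATTA.

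Cpxm1 (ENSMUSG00000027408.8; chromosome 2, 130390775 to 130397574, minus strand) encodes the other CPX protein. It had 115.8, 104 and 116.8 CPM in anterior replicates 1, 2 and 3 and 117.1, 153 and 169 CPM in posterior replicates 1, 2 and 3. Every posterior library was above every anterior one, but posterior replicate 1 exceeded the highest anterior library by less than the anterior libraries spread among themselves. Its log2 fold change was 0.38 (SE 0.14), and 0.06 (SE 0.09) with posterior replicate 1 alone. The CPX genes thus stood in different proportion in the regions. Per kb of exon, Cpxm1 was 10.5, 9.16 and 10.4 times as high as Cpxm2 in the anterior libraries, and 141.5, 149 and 134 times as high in the posterior libraries. The ratio varied little among the libraries of a region, posterior replicates 2 and 3 included.

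Aebp1 (ENSMUSG00000020473.14; chromosome 11, 5861947 to 5872088, plus strand) encodes the collagen-binding matrix protein ACLP, the third member with a discoidin domain. It had 61.2, 50.2 and 57.7 CPM in the anterior libraries and 62.1, 98.0 and 125 CPM in the posterior libraries. Posterior replicate 1 was within 1 CPM of the highest anterior library, and posterior replicates 2 and 3 were well above all others. Its log2 fold change was 0.76 (SE 0.24), and 0.14 (SE 0.12) with posterior replicate 1 alone.

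**Figure D2:**
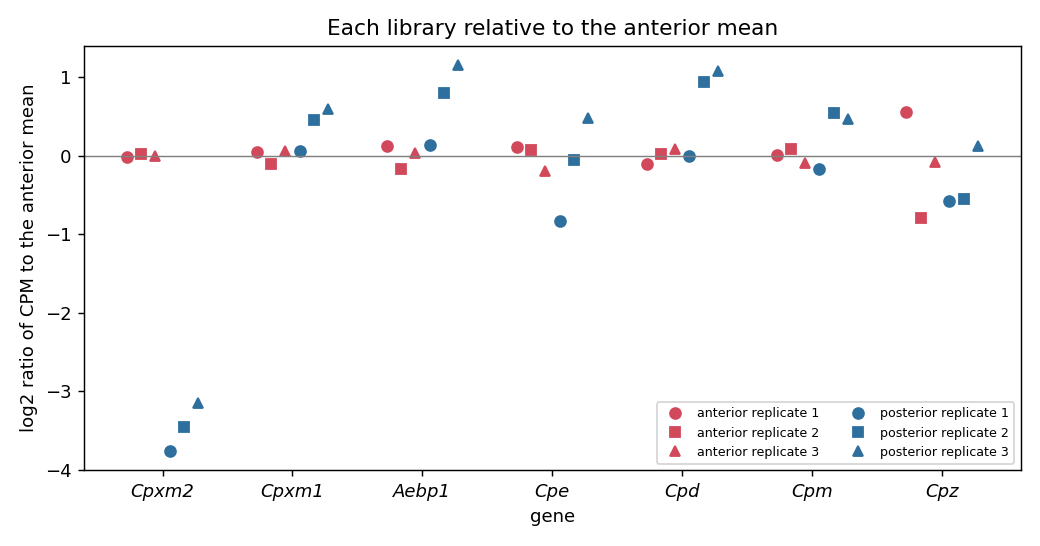
The log2 ratio of each library's CPM to the anterior mean of the same gene, by gene, with libraries by color and shape. Posterior replicate 1 (blue circles) lies within 0.2 of the anterior mean at Cpxm1, Aebp1, Cpd and Cpm, below it at Cpe (-0.83) and Cpz (-0.58), and far below it at Cpxm2 (-3.76).

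The enzymes of the secretory pathway showed no shared shift between the regions. Cpe (ENSMUSG00000037852.9; chromosome 8, 64592542 to 64693054, minus strand) encodes the carboxypeptidase of prohormone maturation. It had 218.5, 213 and 176 CPM in the anterior and 114, 195 and 282 CPM in the posterior libraries. Both the lowest and the highest value were posterior, and the regions overlapped. The log2 fold change was -0.04 (SE 0.29), -0.83 (SE 0.13) with posterior replicate 1 alone and 0.24 (SE 0.15) without it, and 0.01 without anterior replicate 1, so its direction depends on single libraries.

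Cpd (ENSMUSG00000020841.6; chromosome 11, 76778424 to 76847018, minus strand) encodes the membrane-bound carboxypeptidase of the trans-Golgi network. It had 98.7, 108 and 112.5 CPM in the anterior and 106, 203.5 and 224 CPM in the posterior libraries. Posterior replicate 1 lay inside the anterior range, while posterior replicates 2 and 3 were above the anterior mean by 0.94 and 1.07 on the log2 scale. The log2 fold change was 0.74 (SE 0.25) with all libraries and 0.0014 (SE 0.09) with posterior replicate 1 alone.

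Cpm and Cpz encode the enzymes outside the cell. Cpm (ENSMUSG00000020183.12; chromosome 10, 117629500 to 117687352, plus strand) had 57.5, 60.6 and 53.9 CPM in the anterior and 50.9, 83.4 and 79.3 CPM in the posterior libraries. Posterior replicate 1 was the lowest of all 6 libraries and the other posterior libraries were the highest. Its log2 fold change was 0.31 (SE 0.18) and became -0.17 (SE 0.10) with posterior replicate 1 alone.

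Cpz (ENSMUSG00000036596.7; chromosome 5, 35502218 to 35525698, minus strand), whose product also has a frizzled-type cysteine-rich domain of the kind that binds Wnt proteins, was scarce. It had 39, 16 and 22 counts in the anterior and 18, 19 and 32 counts in the posterior libraries, or 1.16 to 2.96 and 1.35 to 2.19 CPM. The regions overlapped, with a log2 fold change of -0.29 (SE 0.40), smaller than its SE. That fold change was -0.57 (SE 0.55) with posterior replicate 1 alone and 0.10 without anterior replicate 1.

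Between the posterior libraries the members moved one way. The mean of posterior replicates 2 and 3 was above posterior replicate 1 by 0.46 for Cpxm1, 0.47 for Cpxm2, 1.07 for Cpe, 0.40 for Cpz, 1.00 for Cpd, 0.68 for Cpm and 0.84 for Aebp1 on the log2 scale, while the median over all genes tested was 0.03. Mitochondrial and multimapping shares differed between the same libraries, and their part in the result was not tested. Cpxm2 was the member whose regional gap, 3.15 to 3.76 below the anterior mean on the log2 scale, exceeded this spread in each posterior library.

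**Figure D3:**
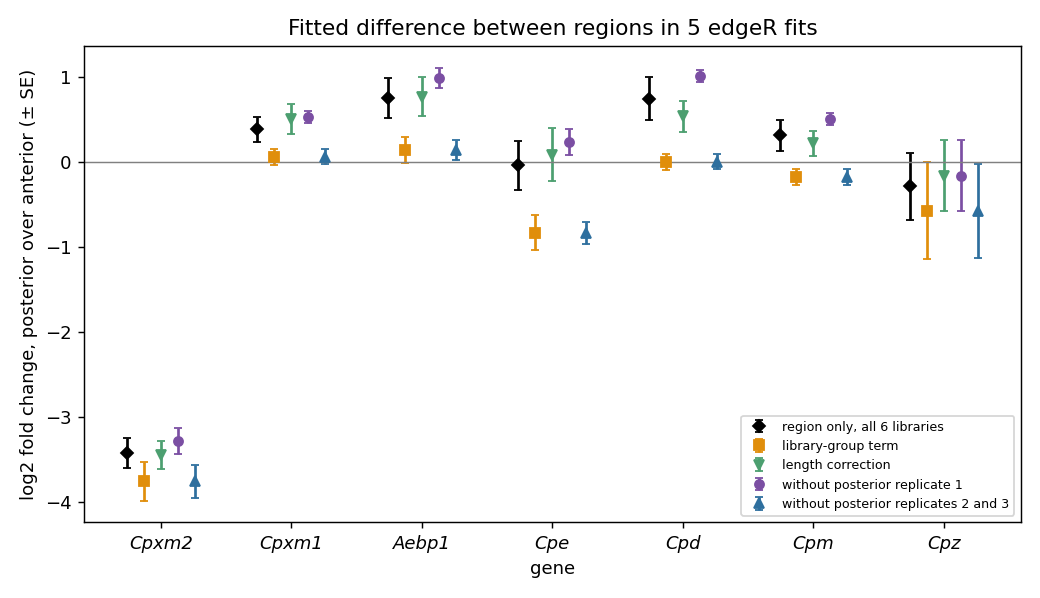
Fitted log2 fold change, posterior over anterior palate, with SE, from 5 edgeR fits: region only on all 6 libraries, with a term for the library groups, with a length correction, without posterior replicate 1, and without posterior replicates 2 and 3. Cpxm2 stays between -3.75 and -3.28, and Cpxm1, Aebp1, Cpd and Cpm fall to between -0.17 and 0.14 where posterior replicate 1 sets the posterior level.

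By edgeR, 1 of the 7 members was called. This was Cpxm2, which was chosen on this contrast, so its calls in this and the other fits are no test of it. DESeq2 called 3 of 7, Cpxm2, Cpd and Aebp1, where it called 12.6% of all genes, and limma-voom called 1, where it called 6.85%. Without posterior replicate 1, 5 of 7 were called, where 46.4% of all genes were. With a term for the 2 library groups Cpxm2 was called, higher in the anterior palate, where 7.61% of all genes were called and 3.21% toward that region. With posterior replicate 1 alone, a fit with no spread among posterior libraries, Cpxm2 and Cpe passed the threshold, as did 7.5% of all genes. The median log2 fold change was 0.31 over the 7 members and -0.004 over all genes tested. With posterior replicate 1 alone the median over the members was -0.17, and that over all genes again -0.004.

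Levels of different genes were compared as CPM per kb of exon. In the anterior palate the order was Cpe with 77.6 ± 8.76, Cpxm1 with 46.1 ± 2.92, Aebp1 with 13.9 ± 1.39, Cpd with 12.8 ± 0.838, Cpm with 9.61 ± 0.559, Cpxm2 with 4.603 ± 0.0705 and Cpz with 0.895 ± 0.402 CPM per kb (SD, n = 3). The ranges of Aebp1 and Cpd overlapped, and the other neighbours in this order did not. In the posterior palate Cpe had 75.5 ± 32.2, Cpxm1 60.2 ± 10.99, Aebp1 23.4 ± 7.80, Cpd 21.4 ± 7.53, Cpm 11.9 ± 2.97, Cpz 0.730 ± 0.215 and Cpxm2 0.427 ± 0.0897 CPM per kb (SD, n = 3). There Cpe and Cpxm1, Aebp1 and Cpd, and Cpd and Cpm overlapped. Cpxm2 and Cpz changed places, and Cpz was above Cpxm2 in 3 of 3 posterior libraries. With coding length in place of exon length Cpxm2 stayed the sixth in the posterior palate, above Cpz.

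**Figure D4:**
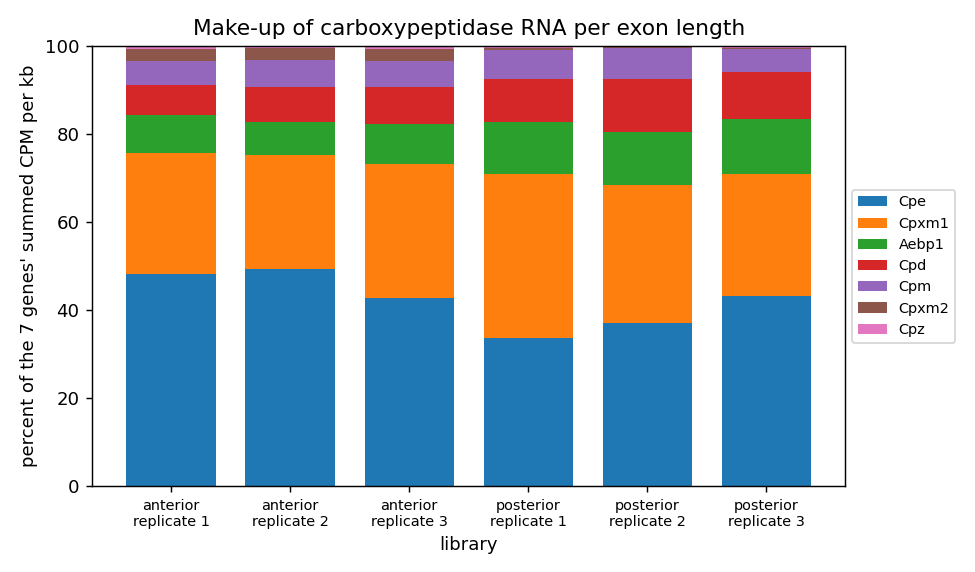
Share of each gene, in percent, in the summed CPM per kb of the 7 genes, one stacked bar per library. Cpe and Cpxm1 make up most of each bar, and Cpxm2 falls from 2.61% to 2.92% in the anterior libraries to 0.208% to 0.263% in the posterior ones.

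Cpe held 42.8% to 49.4% of the summed family level in the anterior and 33.7% to 43.2% in the posterior libraries, and Cpxm1 25.9% to 30.4% and 27.8% to 37.2%. The sum over the family was 158 to 174 CPM per kb in the anterior libraries and 129, 201 and 250.2 in posterior replicates 1, 2 and 3, so the regions overlapped. Cpxm2 was a small part of the family in either region.

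Transcripts of some other cell types also differed between the regions. The calls below stand beside 7.46% of all genes called by edgeR, 12.6% by DESeq2 and 6.85% by limma-voom. An unadjusted p-value below 0.05 was reached by 25.2% in edgeR. All 8 skeletal muscle markers rose toward the posterior palate, with summed levels of 7.59 to 12.98 CPM in the anterior and 572 to 1025 CPM in the posterior libraries. Osteoblast markers summed to 1959 to 3551 CPM in the anterior and 291 to 1817 CPM in the posterior libraries. Ibsp made up most of the anterior sum, with 1403 to 2692 CPM, and had 17.9, 143 and 1279 CPM in posterior replicates 1, 2 and 3. None of the 4 tested was called (3 at an unadjusted p-value below 0.05, 3 by DESeq2, 0 by limma-voom), and Bglap had 3, 0 and 1 counts in the anterior libraries and 0 in every posterior library, at or under the limit of 3 in both regions. Chondrocyte markers summed to 128 to 171 CPM and 516.5 to 659 CPM, with 2 of 4 called, both higher in the posterior palate. Of 5 markers of dental mesenchyme and ameloblasts, with summed levels of 138 to 467 CPM and 339 to 513.5 CPM, 2 were called. They were Ambn, the enamel matrix gene ameloblastin, with 13.3 to 23.8 CPM in the anterior and 0 to 0.686 CPM in the posterior libraries, which passed the filter only through the anterior libraries, and Barx1, higher in the posterior palate. Of 6 epithelial markers, with summed levels of 1125 to 1252 CPM and 794 to 1362 CPM, Trp63 was called, with 65.6 to 72.85 CPM in the anterior and 41.3 to 48.5 CPM in the posterior libraries (adjusted p = 0.00948). The 7 markers of palatal mesenchyme summed to 1624 to 1843 CPM and 1034 to 1329 CPM, and 3 were called, with Prrx1 and Lhx8 higher in the anterior and Twist1 in the posterior palate. Prrx1 made up most of the anterior sum, with 1036 to 1078 CPM against 390 to 460.5 CPM, and the median log2 fold change of the list was 0.10. Endothelial markers (369 to 400 and 332 to 548 CPM) and myeloid markers (86.8 to 97.9 and 89.2 to 96.4 CPM) overlapped in their sums. In both lists 0 of 5 were called, with 1 endothelial and 4 myeloid markers at an unadjusted p-value below 0.05. Glial markers summed to 49.5 to 55.5 and 56.4 to 77.8 CPM, with 1 of 5 called, Erbb3, higher in the posterior palate. The part of these cell types in the family's values was not tested.

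The 5 genes named here were most like Cpxm2 across the 6 libraries, by the root-mean-square difference of centered log2 CPM among 11826 other genes with a mean of at least 5 CPM. They were Lrrc55, which encodes an auxiliary subunit of BK potassium channels (0.32), Six3, a homeobox gene of the anterior head (0.33), Dlx3, a homeobox gene of craniofacial and tooth development (0.37), Acp5, the tartrate-resistant acid phosphatase of osteoclasts (0.40), and Zmat4, a zinc finger gene (0.41). Pearson's r with Cpxm2 was 0.978 to 0.990, a description over libraries that share the split into regions. Acp5, at a level like that of Cpxm2, had 19.0, 19.7 and 21.0 CPM in the anterior and 3.59, 2.89 and 2.81 CPM in the posterior libraries.

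The remaining M14 carboxypeptidases were mostly at low levels. Of 15 listed, 7 were tested and edgeR called 0, with 2 at an unadjusted p-value below 0.05, 1 called by DESeq2 and 0 by limma-voom. Over all genes tested these shares were 7.46%, 25.2%, 12.6% and 6.85%, in that order. Cpn1, the catalytic subunit of plasma carboxypeptidase N and the closest remaining relative, had 1 count in each of anterior replicates 1 and 2 and none in the other libraries. Agtpbp1, which trims glutamates from tubulin, had 20.1, 18.8 and 16.2 CPM in the anterior and 23.9, 34.2 and 29.1 CPM in the posterior libraries, with no overlap and an adjusted p-value of 0.0506 in edgeR. Of 9 carboxypeptidases of other families, 7 were tested and edgeR called 0, with 0 at an unadjusted p-value below 0.05 and 0 by DESeq2 or limma-voom. The same shares over all genes stand beside these counts.

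Among 18 genes of proprotein and prohormone processing, 12 were tested and 1 was called, beside 7.46% of all genes. This was Pam, the enzyme that amidates peptides after Cpe has trimmed them, with 180, 184 and 236 CPM in the anterior and 460, 376 and 497 CPM in the posterior libraries. Pam rose toward the posterior palate by 1.15 on the log2 scale (SE 0.15, adjusted p = 0.00475 from edgeR, higher in 3 of 3 posterior libraries). Furin, the broadly expressed convertase, had a log2 fold change of 0.23 (SE 0.11, adjusted p = 0.218) and Pcsk5 one of 0.22 (SE 0.27, adjusted p = 0.609). Pcsk6, a convertase of growth factor precursors, had 107 to 161.5 CPM in the anterior and 53.9 to 103 CPM in the posterior libraries, with a log2 fold change of -0.89 (SE 0.26, adjusted p = 0.0848).

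Granule proteins and neuroendocrine convertases, the usual company of Cpe in hormone-producing cells, were low in most libraries. Pcsk1, Pcsk2, Pcsk1n, Scg5, Chga, Chgb, Scg2 and Scg3 were highest in posterior replicate 2, and Vgf, with 1 to 7 counts in every library, was highest in anterior replicate 3. Posterior replicate 2 had 7.95 CPM of Scg3 and 10.2 CPM of Scg2, both granins, against at most 0.509 and 2.58 CPM in the other libraries. The 5 neuronal markers summed to 262 CPM in posterior replicate 2 and to 28.6 to 51.8 CPM in the others. Cpe was not highest in posterior replicate 2.

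Of 15 genes with a discoidin domain, 13 were tested and 2 were called, beside 7.46% of all genes and 4.87% toward the posterior palate. They were Cntnap4 and Cntnap5a, both neuronal cell-surface genes and both higher in the posterior palate. Cntnap4 rose by 2.45 on the log2 scale (SE 0.37, adjusted p = 0.00733 from edgeR), or by 1.85 with the library-group term. Cntnap5a had 2, 1 and 2 counts in the anterior and 36, 62 and 48 counts in the posterior libraries. It passed the filter on low counts only through the posterior libraries, where it is high, so its call is given with no p-value. The collagen receptor gene Ddr2 had a log2 fold change of 0.14 (SE 0.26, adjusted p = 0.751), and the semaphorin and VEGF receptor gene Nrp1 one of -0.17 (SE 0.29, adjusted p = 0.721). Nrp1 had 78.1 to 88.6 CPM in the anterior libraries and 40.0, 95.4 and 88.7 CPM in posterior replicates 1, 2 and 3. The paper lists Nrp1 among its anterior-specific genes, from single cells, qRT-PCR of anterior and posterior palate, and in situ hybridization.

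Of 22 genes with a frizzled-type cysteine-rich domain, 21 were tested and 4 were called, 3 toward the posterior palate and 1 toward the anterior, beside 7.46% of all genes. Frzb, a secreted Wnt antagonist, had 353 to 460 CPM in the anterior and 97.75 to 133 CPM in the posterior libraries, and fell by 1.77 toward the posterior palate on the log2 scale (SE 0.16, adjusted p = 0.000897 from edgeR). The Wnt and norrin receptor gene Fzd4 rose by 1.10 (SE 0.14, adjusted p = 0.00451) and Corin, the natriuretic peptide convertase, by 2.58 (SE 0.35, adjusted p = 0.0052), or by 1.93 with the library-group term. Musk, the receptor kinase of the neuromuscular junction, had 1, 4 and 2 counts in the anterior and 21, 29 and 46 counts in the posterior libraries, where the skeletal muscle markers were also high. It too passed the filter only through the posterior libraries.

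Of 14 genes of the collagen fibre matrix, to which the product of Aebp1 binds, 13 were tested and 5 were called, 4 higher in the posterior palate and 1 in the anterior, beside 4.87% and 2.59% of all genes. The median log2 fold change was 0.82, and -0.004 over all genes tested. Postn, the matricellular periostin, rose by 1.65 (SE 0.23, adjusted p = 0.0053 from edgeR) and Lum, the proteoglycan lumican, by 0.85 (SE 0.17, adjusted p = 0.0238), while Fmod, fibromodulin, fell by 0.95 (SE 0.11, adjusted p = 0.0028). Col5a3 was the other gene called besides Col3a1, which had 2736 to 3262 CPM in the anterior and 4140 to 6755 CPM in the posterior libraries (log2 fold change 0.88, SE 0.20, adjusted p = 0.0415). Col1a1 had a log2 fold change of 0.84 (SE 0.20, adjusted p = 0.0503) and Fn1, fibronectin, one of 0.33 (SE 0.26, adjusted p = 0.439). With the library-group term, where the posterior level rests on posterior replicate 1, the calls of Col3a1, Col5a3 and Lum were lost (log2 fold changes of 0.44, 0.84 and 0.51). Over all 18 fits Col3a1 was called in 11, Col5a3 in 10 and Lum in 13, and each lost its call without any 1 of the anterior libraries and without posterior replicate 2. Col3a1 and Col5a3 also lost it without posterior replicate 3, Col3a1 with the replicate block, and Col5a3 with limma-voom and with posterior replicate 1 alone. Postn and Fmod were called in 18 of 18.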

How the data were processed

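The values are raw counts per Ensembl gene that the authors deposited for each of the 6 libraries, unstranded and by strand, in the layout of STAR. The paper's methods name HISAT2 with mm10, StringTie and DESeq2 1.30.1, and the annotation version is not given in the sources used here. The reverse-stranded counts, 18.95 to 23.1 times those of the other strand, were used. Unmapped reads (2.71% to 4.65%), reads mapping to several places, reads on no gene (5.92% to 8.71%) and ambiguous reads (1.84% to 1.99%) stayed out of library sizes.

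Symbols, positions and exon lengths came from GENCODE M21 (GRCm38), matched without version numbers (52073 of 56691 identifiers). A minimum of 10 counts in 3 or more libraries was required, and the genes kept were fitted by edgeR 4.0.16 in R 4.3.3 with TMM normalization, region as the only term and Benjamini-Hochberg adjustment over 15673 genes. DESeq2 1.42.0, limma-voom (limma 3.58.1) and further settings were alternatives. The code of the fits was also run on simulated counts with the same extra spread for every gene, which does not stand for the spread between these libraries. Likeness to Cpxm2 uses log2 CPM with a pseudocount of 0.5. The chi-square per gene between libraries of 1 region was 3.42 to 67.3, above sampling noise. Promoters are from RefSeq (GRCm38.p6), with entries for 6 of the 7 members.

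The members and gene lists were chosen with earlier results of these data known. Named are the members, up to 4 called genes per list by adjusted p, 11 genes that act beside a member, and the 5 genes most like Cpxm2. Chst15, Bub3, Fgfr2, Gm15677, Gm44891, the cell type markers and the granule genes were named after their values were seen. Cpe has no promoter entry and is named only.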

Additional observations from a re-analysis of the deposited data

Results flagged for a closer look

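Counts on the strand opposite to the gene, which entered only the unstranded alternative, were above the limit of 3 in every library at Cpe, with 89 counts over the 6 libraries (0.547% of its reads on either strand), and at Aebp1, with 85 counts (1.36%). Groups of 3 libraries are too small for a test of single outlying libraries.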

How the results depend on the processing

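The length correction and the fit without posterior replicates 2 and 3 were added after the values were known. Causes of the changes given here were not tested.

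The log2 fold change of Cpxm2, which chose it, was -3.75 to -3.28 over 18 fits, and -3.58 to -3.28 with 1 replicate left out, given as a description. Its rank in the posterior palate, 7, became 6 with coding length. Genes called went from 1169 to 1978 with DESeq2, 2162 with no low-count filter and 498 to 7119 with 1 replicate left out, the highest without posterior replicate 1. Members called went from 1 to 3 with DESeq2 or no filter, 2 without posterior replicates 2 and 3, and 1 to 5 with 1 replicate left out.

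With DESeq2 and with no filter, in that order, the calls were 1 and 3 for the other M14 genes (from 0), 3 and 3 for processing genes (from 1), 4 and 4 for discoidin genes (from 2), 8 and 9 for frizzled-type genes (from 4) and 10 and 10 for collagen-fibre genes (from 5). With the library-group term there were 1 for carboxypeptidases outside M14 (from 0), 2 for processing, 7 for frizzled-type and 3 for collagen-fibre genes. Without posterior replicates 2 and 3 there were 1 outside M14 and 2 for processing, and with the length correction 2 for processing. A minimum of 10 counts in every library left 0 discoidin calls, since the called genes fail it. With 1 replicate left out the calls ranged from 0 to 3 for the other M14 genes, 0 to 2 outside M14, 1 to 7 for processing, 1 to 7 for discoidin, 3 to 13 for frizzled-type and 2 to 12 for collagen-fibre genes, each highest without posterior replicate 1.

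The direction of Cpe (-0.04) turned with the length correction (0.088), and with 1 replicate left out Cpe ranged from -0.39 to 0.24 (0.0144 without anterior replicate 1) and Cpz (-0.29) from -0.57 to 0.10. Cpm (0.31) turned with the library-group term (-0.1723) and without posterior replicates 2 and 3 (-0.1738).

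With the replicate block Cpxm2 had a log2 fold change of -3.43, and 829 genes and 1 member were called. Same-numbered libraries deviated together by correlations of -0.059, 0.0204 and 0.0336, so the numbers are not taken to pair them.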
